A study of Mus musculus with 8 samples.

Results

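The 45 genes described here encode the machinery of DNA replication and S phase, and were named by symbol in both deposited count tables, from origin licensing through the replication fork to nucleotide supply and the copying of chromatin. All 45 were found among the 16735 genes in both tables, and all 45 were among the 14418 genes that passed the low-count filter and were tested. Bulk RNA-seq was done on T follicular helper (Tfh) cells, which support B cell responses within germinal centres, from K/BxN mice, which develop an autoimmune arthritis without induction. These mice also carried a Th17 fate-mapping reporter, which leaves a former Th17 cell and its progeny marked by the fluorescent protein ZsGreen. The sources used here do not give the driver of that reporter, the age or sex of the mice, or any pooling.

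The sort took TCRβ+ CD4+ cells that lacked CD25 and carried PD-1 and CXCR5, from Peyer's patch (PP), the lymphoid follicles of the small intestine, and from spleen. In each tissue a ZsGreen+ and a ZsGreen− population was collected, which gave 4 groups: ZsGreen+ Tfh from PP, ZsGreen− Tfh from PP, ZsGreen+ Tfh from spleen and ZsGreen− Tfh from spleen. Both populations came from the same kind of reporter mouse, untreated as far as the labels say, so that ZsGreen− cells are taken to carry the same reporter alleles. Each group had 1 library in experiment 1 and 1 in experiment 2. Whether the 2 experiments used separate animals is not stated, so p-values measure the spread between these libraries. The study defined signature genes as those higher in ZsGreen+ than in ZsGreen− cells, and the comparisons below ask where the replication genes stood in that contrast in each tissue, and between the tissues.

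Before S phase, the origin recognition complex, CDC6 and CDT1 load the MCM helicase onto DNA, and geminin then blocks CDT1 so that no origin is loaded again. CDC45 and the GINS complex turn the loaded MCM ring into an active helicase, and the fork is built around it from primase, polymerases, the PCNA clamp and its loader. Many of these genes are transcribed under E2F control as cells leave G1. Tfh cells of germinal centres divide while they interact with B cells.

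Library totals ran from 10009823 to 15323743 estimated counts. The 2 experiments differed in ways that touched the members: log2 CPM (counts scaled to a common library size with TMM factors) in experiment 2 minus experiment 1 ranged from -2.06 for Pole to 2.07 for Gmnn. Over the 45 members this difference had a Pearson r of -0.61 with log2 exon length, against -0.36 over 14392 genes, a description of genes that share the same 8 libraries. Comparisons were therefore read within experiments and fitted with an experiment term. All 7 Tfh markers were present in every library, the lowest value being 16.6 CPM for Bcl6. Their sum was 2920 and 4600 CPM in ZsGreen+ and 2610 and 5040 CPM in ZsGreen− Tfh of PP, and 1260 and 2060 CPM in ZsGreen+ and 1500 and 4030 CPM in ZsGreen− Tfh of spleen. It was thus lowest in ZsGreen+ Tfh from spleen in each experiment, where Cxcr5 had 124 and 105 CPM, against 351 and 390 CPM in ZsGreen− Tfh from spleen. The 6 Th17 markers summed to 118 and 457 CPM in ZsGreen+ and 20 and 94.7 CPM in ZsGreen− Tfh of PP, and to 616 and 1680 CPM in ZsGreen+ and 21.2 and 72.2 CPM in ZsGreen− Tfh of spleen (experiments 1 and 2). ZsGreen− Tfh from spleen in experiment 2 stood apart, with the smallest total, the lowest TMM factor (0.656) and 120000 CPM of Actb, against 39500 to 81900 CPM in the other 3 libraries of that experiment. Y-linked genes had 1010 and 179 counts in ZsGreen+ and ZsGreen− Tfh from PP and 1094 and 0 in ZsGreen+ and ZsGreen− Tfh from spleen of experiment 1, and 397 to 1482 in experiment 2. The part of these facts in the results was not tested.

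Promoter sequence is shown for 5 members whose expression spans the results below: Orc1 and Cdc6, which did not pass the test, Mcm5, which rose in spleen, Mcm6, whose estimates were small, and Rrm2, whose rise in spleen was the largest of the 45. Each run covers the 160 bases before the RefSeq start site (GRCm38.p6), read 5′ to 3′ on the gene's strand. Capitals mark E2F elements in the first 4 sequences and the CCAAT box in Rrm2, whose window held no E2F element.
Orc1 (chr4:108579294-108579453, plus strand): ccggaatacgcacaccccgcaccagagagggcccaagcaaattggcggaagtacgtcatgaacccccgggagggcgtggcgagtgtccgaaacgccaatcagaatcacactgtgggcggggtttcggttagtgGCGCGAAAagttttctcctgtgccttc
Cdc6 (chr11:98907991-98908150, plus strand): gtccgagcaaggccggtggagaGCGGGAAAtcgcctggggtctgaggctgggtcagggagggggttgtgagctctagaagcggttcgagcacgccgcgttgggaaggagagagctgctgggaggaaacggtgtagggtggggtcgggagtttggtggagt
Mcm5 (chr8:75109349-75109508, plus strand): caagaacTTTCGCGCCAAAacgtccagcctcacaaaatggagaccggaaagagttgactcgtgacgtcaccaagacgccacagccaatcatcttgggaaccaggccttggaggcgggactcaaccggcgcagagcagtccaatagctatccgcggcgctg
Mcm6 (chr1:128359706-128359865, minus strand): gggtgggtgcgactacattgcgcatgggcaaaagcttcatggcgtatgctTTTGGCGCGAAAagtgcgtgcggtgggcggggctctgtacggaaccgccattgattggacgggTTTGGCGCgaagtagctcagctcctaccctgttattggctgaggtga
Rrm2 (chr12:24708094-24708253, plus strand): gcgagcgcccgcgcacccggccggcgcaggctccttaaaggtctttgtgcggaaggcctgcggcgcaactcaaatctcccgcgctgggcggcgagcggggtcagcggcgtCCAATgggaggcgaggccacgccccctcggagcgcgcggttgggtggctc
An E2F element was searched as TTTCCCGC, TTTCGCGC, TTTGCCGC or TTTGGCGC on both strands, from 250 bases before to 50 after the start. Mcm6 held 3 of them, whose first bases lay 110, 106 and 47 bases before the start, the first 2 overlapping. Mcm5 held 2 overlapping elements, 153 and 149 bases before it, while Cdc6 held 1 at 138 bases and Orc1 held 1 at 27 bases. Promoters of 36 members were in the RefSeq table, 43 promoters in all, and 15 of the 43 (34.9%) held an E2F element, against 744 of 32851 promoters (2.26%) in the table and 607 of 21263 promoters (2.85%) of protein-coding genes. Among the members the element was in 2 of 13 promoters (15.4%) of genes that rose in spleen and in 13 of 30 (43.3%) of the others. A CCAAT box was in 26 of the 43 promoters (60.5%), in 37.4% of all and in 19 of 24 promoters (79.2%) of a list of mitosis genes. The CHR element (TTTGAA or TTCGAA), known from promoters of mitotic genes, was in 7 of the 43 (16.3%) and in 19.2% of all, but in 18 of the 24 promoters (75%) of mitosis genes. These are matches of letters, and overlaps between different elements were not removed.

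The summed level of the 45 genes was higher in ZsGreen+ than in ZsGreen− Tfh in both tissues and both experiments, with larger ratios in spleen. In PP the sum was 2090 and 3550 CPM in ZsGreen+ and 1940 and 2660 CPM in ZsGreen− cells (experiments 1 and 2), ratios of 1.07 and 1.33. In spleen it was 2620 and 4260 CPM in ZsGreen+ and 2090 and 2620 CPM in ZsGreen− cells, ratios of 1.26 and 1.63. ZsGreen+ Tfh from spleen thus had the highest sum of its experiment each time. The sum of ZsGreen+ cells in PP was 0.80 and 0.83 of that in spleen, whereas for ZsGreen− cells the ratios were 0.93 and 1.02. These ratios depended on the TMM factors. As a percent of library counts, the 45 genes held 0.258 and 0.344 in PP and 0.322 and 0.349 in spleen for ZsGreen+ cells. For ZsGreen− cells they held 0.239 and 0.223 in PP and 0.256 and 0.172 in spleen. Averaged over the 2 experiments, the sums were 2820 ± 1030 CPM in ZsGreen+ and 2300 ± 508 CPM in ZsGreen− Tfh from PP, and 3440 ± 1160 CPM in ZsGreen+ and 2350 ± 376 CPM in ZsGreen− Tfh from spleen (SD, n = 2 each), so the groups overlapped unless read within an experiment. In bulk RNA, fewer cells in S phase and less of these RNAs per cell cannot be told apart.

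**Figure D1:**
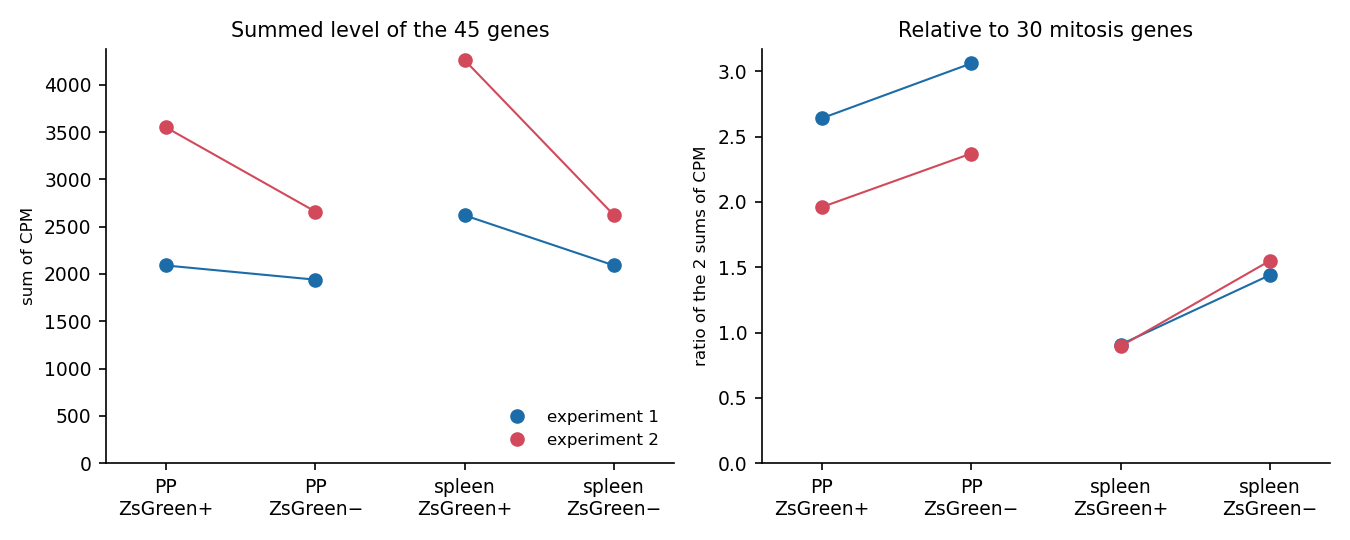
Left, summed CPM of the 45 replication genes in each of the 8 libraries; right, that sum divided by the summed CPM of 30 mitosis genes. Points are libraries and lines join the ZsGreen+ and ZsGreen− libraries of one tissue and experiment; the sum falls towards ZsGreen− in every pair, and the ratio lies between 1.96 and 3.06 in PP and between 0.895 and 1.55 in spleen.

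Rpa1, Mcm6 and Rrm2 had the highest mean CPM of the 45. Per kilobase of exon the highest mean levels were those of Rrm2 (77.1 CPM per kb), Rpa1 (57.3), Mcm6 (53.7), Pcna (46.3) and Dut (37.0). The lowest were Pole (1.06), Orc1 (1.17) and Mcm10 (1.21). Leaving out the 3 most abundant genes, the summed level had ratios of 1.10 and 1.44 for ZsGreen+ over ZsGreen− in PP and of 1.31 and 1.68 in spleen.

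In spleen, 16 of the 45 genes (35.6%) rose in ZsGreen+ over ZsGreen− Tfh at an adjusted p under 0.05 in edgeR's quasi-likelihood test with Benjamini-Hochberg adjustment, where 4.53% of all genes tested were called higher. None was called lower, where 4.09% of all genes were. At an unadjusted p under 0.05, 1 gene, Rpa1, was lower, where 1636 of 14418 genes were. DESeq2 called that gene lower, at -0.34 and an adjusted p of 0.0461, while limma called none lower. The median log2 fold change was 0.61, against -0.03 over all genes tested, and 44 of the 45 lay above 0. By the study's own criterion, a fold of 1.5 with an unadjusted p under 0.05, 23 of the 45 were higher, against 6.4% of all genes. In both experiments taken singly, 40 of the 45 were higher, against 31.7% of all genes, and the median within-experiment difference of log2 CPM was 0.48 in experiment 1 and 0.73 in experiment 2. Of the 16 calls, 12 remained without ZsGreen− Tfh from spleen of experiment 1, 6 without ZsGreen+ of experiment 1, 6 without ZsGreen+ of experiment 2, and 3 (Prim1, Rrm2, Tk1) without ZsGreen− of experiment 2. No call passed in a fit without the experiment term.

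In PP, none of the 45 passed the same edgeR test in either direction, where 0.284% of all genes were called higher and 0.153% lower. At an unadjusted p under 0.05, 19 were higher and 0 lower, where 621 and 551 of 14418 genes were. DESeq2 called 1 (Prim1, 0.71, adjusted p 0.0144) and limma 0. The median log2 fold change was 0.37, against 0.00 over all genes, and 42 of the 45 lay above 0. It was 0.14 without ZsGreen+ Tfh from PP of experiment 2. The study's criterion held for 13, against 2.64% of all genes, and 32 were higher in both experiments, against 27.1% of all genes.

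The difference between the sort effects of the tissues, PP minus spleen, was tested for each gene and none of the 45 passed, where 0.0277% of all genes were called higher and 0.0694% lower. At an unadjusted p under 0.05, edgeR found 2 of the 45 lower and 0 higher, where 549 and 674 of 14418 genes were. The 2 were Mcm3 (-0.81, adjusted p 0.329) and Rrm2 (-0.87, adjusted p 0.328), and neither DESeq2 nor limma called any. The difference lay below 0 for 34 of the 45, with a median of -0.20. Calls in spleen and none in PP are therefore not shown to be a tissue difference at the level of single genes; without ZsGreen+ Tfh from PP of experiment 2, Rrm2 alone passed (-1.30, adjusted p 0.0497).

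**Figure D2:**
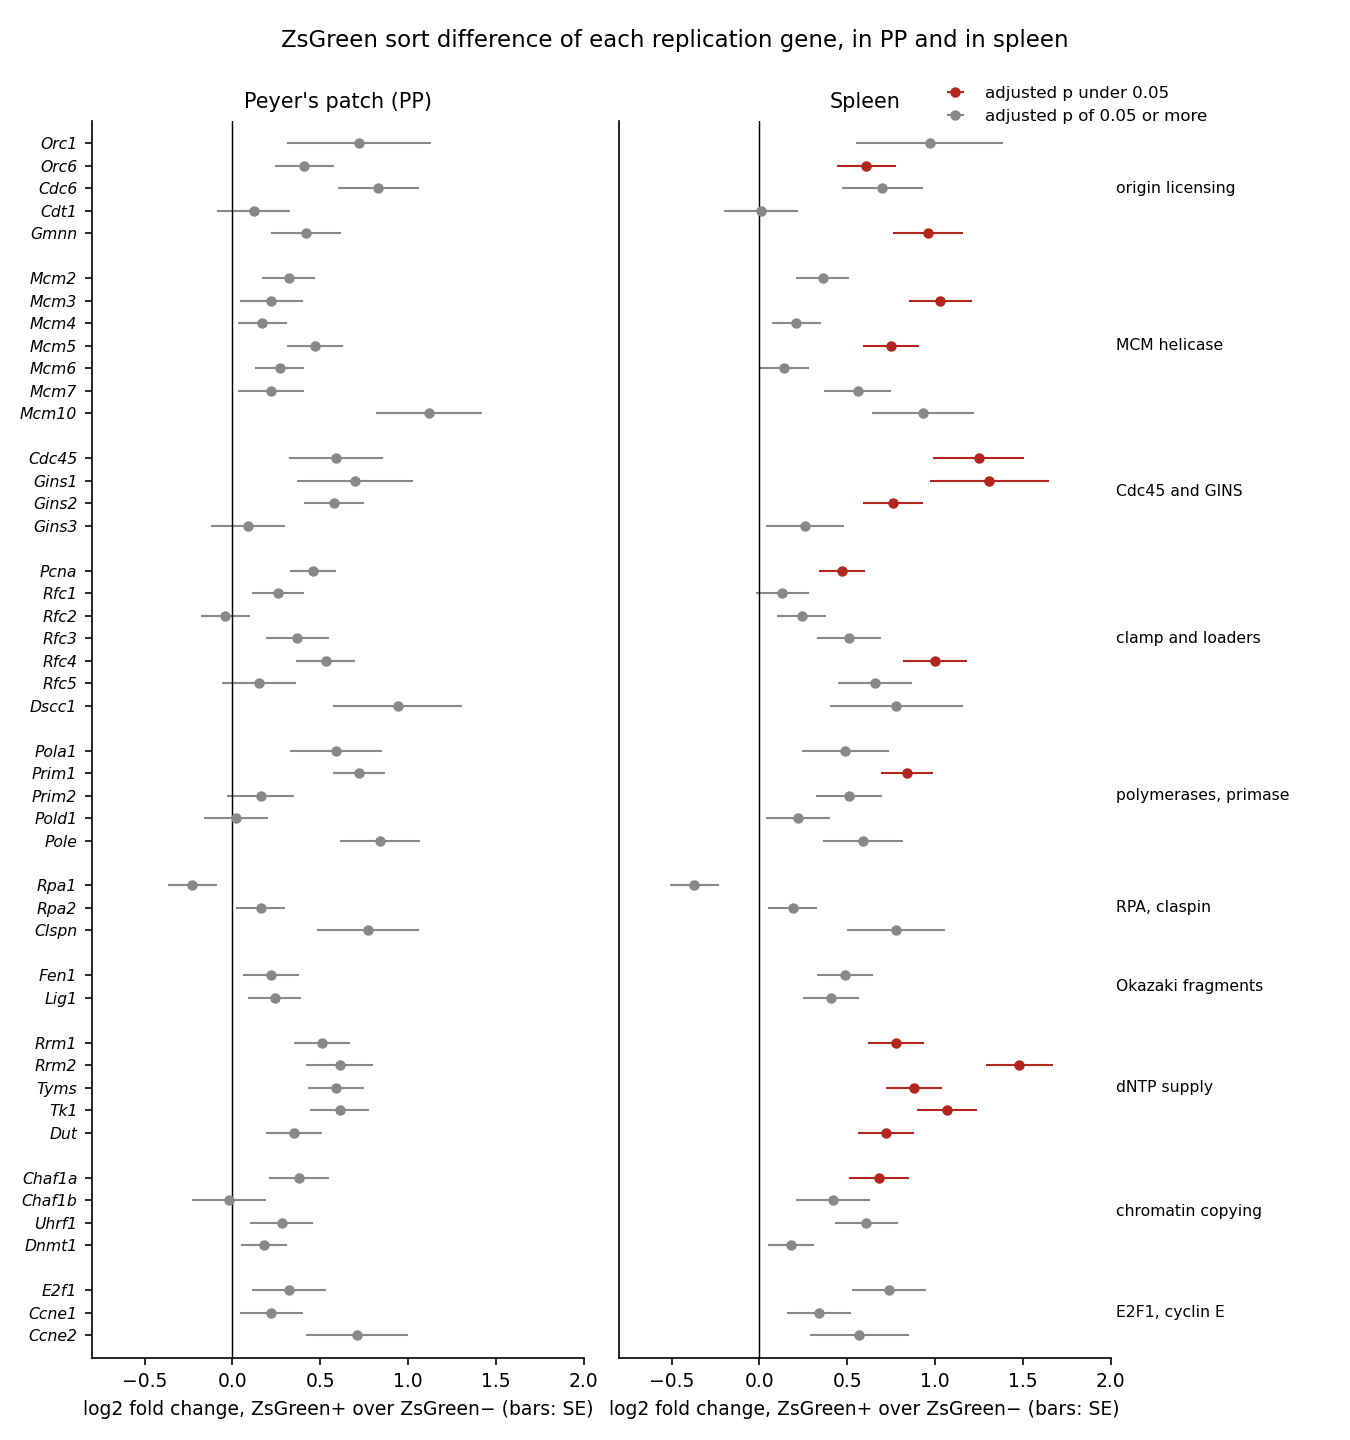
Log2 fold change of ZsGreen+ over ZsGreen− Tfh for each of the 45 genes, grouped by role, in PP (left) and in spleen (right). Points are edgeR estimates, bars their SE, and red marks an adjusted p under 0.05; all 5 genes of nucleotide supply are red in spleen, no gene is red in PP, and Rpa1 lies left of 0 in both.

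Nucleotide supply was the one role in which every gene rose in spleen. All 5 lay above 0 in PP (median 0.59) without passing the test, and all 5 passed in spleen (median 0.88). Rrm2, the small subunit of ribonucleotide reductase that makes deoxynucleotides, had 52.6 and 309 CPM in ZsGreen+ and 40.7 and 176 CPM in ZsGreen− Tfh of PP (experiments 1 and 2). Its values in spleen were 173 and 677 CPM in ZsGreen+ and 68.7 and 214 CPM in ZsGreen− cells. In each experiment ZsGreen+ Tfh from spleen stood highest of the 4 libraries and ZsGreen− Tfh from PP lowest. The log2 fold change was 0.61 ± 0.19 (SE) in PP with an adjusted p of 0.353, and 1.48 ± 0.19 in spleen with an adjusted p of 0.000996. Tk1, the thymidine kinase that salvages thymidine, had 21.6 and 67.8 CPM in ZsGreen+ and 16.9 and 37.8 CPM in ZsGreen− Tfh of PP, and 38.5 and 113 CPM in ZsGreen+ and 21.3 and 46.0 CPM in ZsGreen− Tfh of spleen. ZsGreen+ was higher in all 4 pairs, by 1.07 ± 0.17 in spleen (adjusted p 0.00256). Rrm2 and Tk1 were the 2 spleen calls that passed whichever of the 8 libraries was left out, with adjusted p of at most 0.0144 and 0.0408 in edgeR. Tyms, which makes thymidylate, rose by 0.88 in spleen, Rrm1, the large reductase subunit, by 0.78, and Dut, which removes dUTP, by 0.72.

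Of the 4 members that encode CDC45 or a GINS subunit, 3 rose in spleen. Cdc45 had 7.31 and 26.5 CPM in ZsGreen+ and 5.39 and 16.5 CPM in ZsGreen− Tfh of PP, and 20 and 40.6 CPM in ZsGreen+ and 9.15 and 15.2 CPM in ZsGreen− Tfh of spleen. ZsGreen+ exceeded ZsGreen− in each pair, with a log2 fold change of 0.59 ± 0.27 in PP (adjusted p 0.611) and 1.25 ± 0.26 in spleen (adjusted p 0.0134). Gins2, the most abundant of these 4 members, had 43.0 and 47.2 CPM in ZsGreen+ and 34.3 and 26.1 CPM in ZsGreen− Tfh of PP. Its values in spleen were 41.8 and 39.7 CPM in ZsGreen+ and 27.3 and 20.5 CPM in ZsGreen− cells. For this gene both ZsGreen+ spleen libraries lay above both ZsGreen− ones, and likewise in PP, with 0.76 ± 0.17 in spleen (adjusted p 0.0186). Gins1 rose by 1.31 ± 0.34 in spleen. Gins3, a subunit of the same complex, had 11.5 and 24.8 CPM in ZsGreen+ and 12.6 and 19.9 CPM in ZsGreen− Tfh of PP, and 13.9 and 20.2 CPM in ZsGreen+ and 9.63 and 20.7 CPM in ZsGreen− Tfh of spleen. The groups overlapped in both tissues, and its log2 fold change was 0.09 in PP and 0.26 in spleen (adjusted p 0.547). Gins4, the remaining GINS subunit, is not one of the 45. Its log2 fold change was -0.19 in PP (adjusted p 0.835) and 0.29 in spleen (adjusted p 0.324).

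Of the MCM group, the 6 subunits of the helicase ring and Mcm10, which binds the fork, 2 of 7 rose in spleen. The ring holds its subunits in equal number. Mcm3 had 88.3 and 108 CPM in ZsGreen+ and 88.0 and 80.3 CPM in ZsGreen− Tfh of PP, and 150 and 182 CPM in ZsGreen+ and 93.5 and 67.8 CPM in ZsGreen− Tfh of spleen. Only the 2 ZsGreen+ spleen libraries stood apart, and the log2 fold change was 0.22 ± 0.18 in PP (adjusted p 0.823) and 1.03 ± 0.18 in spleen (adjusted p 0.00535). Mcm6, the most abundant subunit, had 208 and 381 CPM in ZsGreen+ and 178 and 307 CPM in ZsGreen− Tfh of PP, and 197 and 290 CPM in ZsGreen+ and 173 and 271 CPM in ZsGreen− Tfh of spleen. Its difference was small in both tissues, 0.27 ± 0.14 in PP (adjusted p 0.683) and 0.14 ± 0.14 in spleen (adjusted p 0.619). Mcm5 rose by 0.75 ± 0.16 in spleen. The other 4 did not pass there, with 0.93 for Mcm10, 0.56 for Mcm7, 0.36 for Mcm2 and 0.21 for Mcm4. Mcm10 had the highest estimate of the 45 in PP, 1.12 ± 0.30 (adjusted p 0.218).

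Among the licensing genes, Gmnn and Orc6 rose in spleen. Gmnn, which encodes the licensing inhibitor geminin, had 9.50 and 59.0 CPM in ZsGreen+ and 9.85 and 33.9 CPM in ZsGreen− Tfh of PP, and 18.5 and 73.8 CPM in ZsGreen+ and 9.79 and 36.8 CPM in ZsGreen− Tfh of spleen. The PP pair of experiment 1 was level and the other 3 pairs were higher in ZsGreen+; the log2 fold change was 0.96 ± 0.20 in spleen (adjusted p 0.0134). Orc6, a subunit of the origin recognition complex, rose by 0.61 ± 0.17 in spleen (adjusted p 0.0464). Cdt1, the loader that geminin binds and that cells degrade in S phase, behaved otherwise. It had 28.1 and 26.5 CPM in ZsGreen+ and 32.1 and 18.7 CPM in ZsGreen− Tfh of PP, and 30.8 and 33.8 CPM in ZsGreen+ and 38.7 and 26.2 CPM in ZsGreen− Tfh of spleen. In both tissues the sign turned between the experiments, and the log2 fold change was 0.12 ± 0.21 in PP and 0.01 ± 0.21 in spleen. Cdc6 had 0.83 in PP and 0.70 in spleen (adjusted p 0.0872), and Orc1 0.97 in spleen (adjusted p 0.202) on a mean of 4.06 CPM.

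Of the clamp and its loaders, Pcna and Rfc4 rose in spleen. Pcna, the sliding clamp that holds polymerases on DNA, had 100 and 109 CPM in ZsGreen+ and 77.9 and 73.8 CPM in ZsGreen− Tfh of PP, and 146 and 160 CPM in ZsGreen+ and 105 and 117 CPM in ZsGreen− Tfh of spleen. The 2 experiments lay close together for this gene and the 4 groups did not overlap except at 105 to 109 CPM, where the ZsGreen− spleen and ZsGreen+ PP libraries met. The log2 fold change was 0.46 ± 0.13 in PP (adjusted p 0.250) and 0.47 ± 0.13 in spleen (adjusted p 0.0434). Rfc4, a subunit of the clamp loader, had 12.4 and 61.7 CPM in ZsGreen+ and 9.53 and 39.1 CPM in ZsGreen− Tfh of PP, and 15 and 68.6 CPM in ZsGreen+ and 8.72 and 29.6 CPM in ZsGreen− Tfh of spleen. It rose by 1.0 ± 0.18 in spleen (adjusted p 0.00520), while the other loader subunits had 0.13 for Rfc1, 0.24 for Rfc2, 0.51 for Rfc3 and 0.66 for Rfc5, none past the test. Dscc1, of the alternative loader that acts with sister chromatid cohesion, had 0.94 in PP and 0.78 in spleen on a mean of 6.28 CPM.

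Prim1, the catalytic subunit of primase and the most abundant of its group, rose in spleen and came nearest to passing in PP. It had 21.1 and 57.2 CPM in ZsGreen+ and 12.4 and 36.1 CPM in ZsGreen− Tfh of PP, and 30.1 and 70.6 CPM in ZsGreen+ and 15.5 and 42.8 CPM in ZsGreen− Tfh of spleen. ZsGreen+ was higher in all 4 pairs by similar steps, 0.72 ± 0.15 in PP (adjusted p 0.0956) and 0.84 ± 0.15 in spleen (adjusted p 0.00570). The other 4 of its group, the primase subunit Prim2 and the polymerase subunits Pola1, Pold1 and Pole, ranged from 0.02 to 0.84 in PP and from 0.22 to 0.59 in spleen, none past the test.

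Rpa1 was the one member with an estimate below 0 in spleen. It encodes the large subunit of RPA, which coats single-stranded DNA also in repair. It had 334 and 351 CPM in ZsGreen+ and 370 and 433 CPM in ZsGreen− Tfh of PP, and 217 and 250 CPM in ZsGreen+ and 285 and 317 CPM in ZsGreen− Tfh of spleen. ZsGreen+ was lower in all 4 pairs and without overlap in either tissue, by estimates of -0.23 ± 0.14 in PP (adjusted p 0.754) and -0.37 ± 0.14 in spleen (adjusted p 0.146), neither past edgeR's test. Rpa2, its partner subunit, had 30.9 and 111 CPM in ZsGreen+ and 31.2 and 89.7 CPM in ZsGreen− Tfh of PP, and 34.7 and 103 CPM in ZsGreen+ and 31.8 and 86.9 CPM in ZsGreen− Tfh of spleen, where its estimate was 0.19 (adjusted p 0.489). Clspn, which encodes the checkpoint mediator claspin, had 13.4 and 11.3 CPM in ZsGreen+ and 8.16 and 6.65 CPM in ZsGreen− Tfh of PP, and 29.1 and 15.3 CPM in ZsGreen+ and 19.1 and 6.90 CPM in ZsGreen− Tfh of spleen. ZsGreen+ was higher in all 4 pairs, with an estimate of 0.78 ± 0.28 in spleen (adjusted p 0.124).

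The 9 remaining genes held 1 spleen call. Chaf1a, the large subunit of the histone chaperone CAF-1, had 25.7 and 18.5 CPM in ZsGreen+ and 20.4 and 13.8 CPM in ZsGreen− Tfh of PP, and 36.4 and 24.5 CPM in ZsGreen+ and 23.9 and 14.4 CPM in ZsGreen− Tfh of spleen. It was higher in ZsGreen+ in all 4 pairs and rose by 0.68 ± 0.17 in spleen (adjusted p 0.0325). Dnmt1, the maintenance DNA methyltransferase and the most abundant of the chromatin group, had 145 and 58.1 CPM in ZsGreen+ and 135 and 48.2 CPM in ZsGreen− Tfh of PP, and 182 and 70.5 CPM in ZsGreen+ and 173 and 57.0 CPM in ZsGreen− Tfh of spleen, where the difference was 0.18 (adjusted p 0.476). The genes just outside the threshold in spleen were E2f1, the S-phase transcription factor, with 0.74 ± 0.21 (adjusted p 0.0528) and Uhrf1, which recruits DNMT1 to copied DNA, with 0.61 ± 0.18 (adjusted p 0.0577). E2f1 had 15 and 20.3 CPM in ZsGreen+ and 12.4 and 15.8 CPM in ZsGreen− Tfh of PP, and 18.3 and 24.0 CPM in ZsGreen+ and 12.9 and 11.5 CPM in ZsGreen− Tfh of spleen. Among the genes of lagging-strand processing, Fen1, the flap nuclease, had 33.6 and 122 CPM in ZsGreen+ and 37.1 and 82.5 CPM in ZsGreen− Tfh of PP, and 53.8 and 140 CPM in ZsGreen+ and 36.9 and 103 CPM in ZsGreen− Tfh of spleen. Lig1, the DNA ligase, had 69.4 and 80.5 CPM in ZsGreen+ and 71.8 and 55.2 CPM in ZsGreen− Tfh of PP, and 66.3 and 66.5 CPM in ZsGreen+ and 53.4 and 46.6 CPM in ZsGreen− Tfh of spleen. For both genes the PP pair of experiment 1 was lower in ZsGreen+ and the other 3 pairs were higher, and the spleen estimates were 0.49 for Fen1 (adjusted p 0.0874) and 0.41 for Lig1 (adjusted p 0.145). Ccne1 and Ccne2, the E-type cyclins, had 0.22 and 0.71 in PP and 0.34 and 0.57 in spleen. Ccne1 had 15.9 and 57.2 CPM in ZsGreen+ and 14.5 and 46.6 CPM in ZsGreen− Tfh of PP, and 15.8 and 45.8 CPM in ZsGreen+ and 14.0 and 31.9 CPM in ZsGreen− Tfh of spleen. Chaf1b had -0.02 in PP and 0.42 in spleen.

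**Figure D3:**
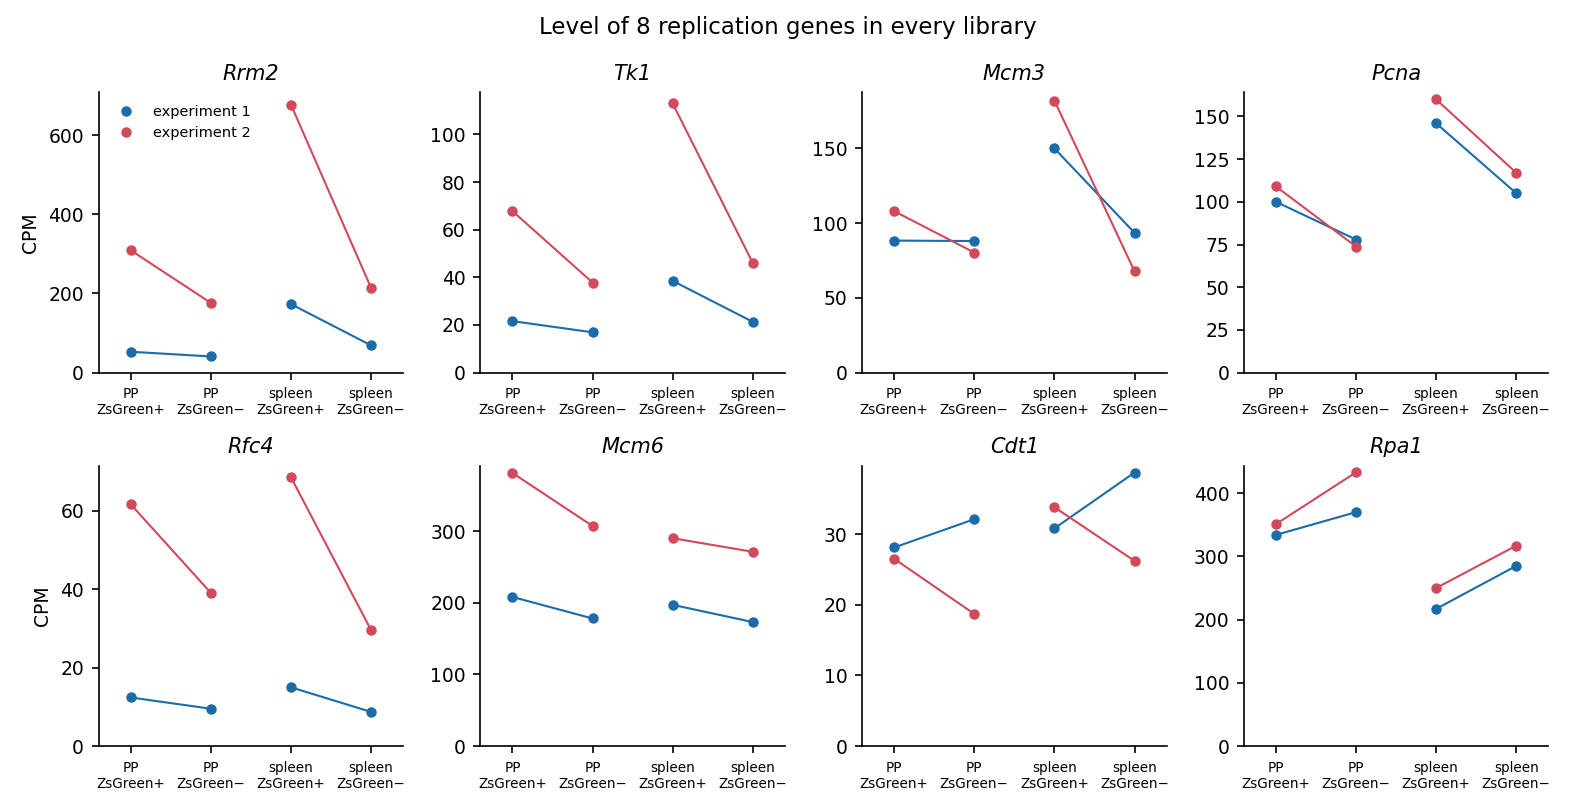
CPM of 8 of the replication genes in every library, with experiments 1 and 2 in separate colours and lines joining ZsGreen+ and ZsGreen− of one tissue and experiment (linear axes from 0). Rrm2, Tk1, Mcm3, Pcna and Rfc4 are highest in ZsGreen+ Tfh from spleen in each experiment, Mcm6 moves little, the lines of Cdt1 cross between experiments, and Rpa1 is lower in ZsGreen+ in all 4 pairs.

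Some counts may hold reads of neighbours. Exons of 15 of the 45 genes overlap an exon on the opposite strand in the GENCODE M21 annotation, among them Orc6, Cdc45, Gins2, Rfc4, Tk1 and Chaf1a of the 16 that rose in spleen. The longest overlap was 4648 bases for Chaf1a and 2758 for Gins2, whose exons cover 8.854 and 4.097 kb. It was 209 bases for Cdc45, 194 for Rfc4, 171 for Orc6 and 83 for Tk1. The labels name either a poly A or a non-directional library, and in a non-directional one reads of both strands cannot be told apart. Pseudogenes named after Pcna and Tyms are annotated, and the sources used here do not say how reads were divided among copies.

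Between the tissues, ZsGreen+ Tfh from PP had lower levels of many replication genes than ZsGreen+ Tfh from spleen. In edgeR's test 9 of the 45 were lower in PP, where 7.17% of all genes were called lower, and 1 was higher, where 5.51% were. The median log2 fold change of PP over spleen was -0.37, against 0.01 over all genes, and 32 of the 45 were lower in both experiments, against 34.4% of all genes. The 9 were Rrm2 (-1.40, adjusted p 0.000667), Cdc45 (-1.0), Tyms (-0.87), Tk1 (-0.78), Mcm3 (-0.76), Dut (-0.61), Rrm1 (-0.60), Uhrf1 (-0.59) and Pcna (-0.55), so that all 5 genes of nucleotide supply were among them. The gene higher in PP was Rpa1 (0.56 ± 0.14, adjusted p 0.0221), and all its 4 PP libraries (334 to 433 CPM) lay above its 4 spleen libraries (217 to 317 CPM). None of the 10 calls passed without the experiment term, and 5 of the 10 remained with library totals. Without ZsGreen+ Tfh from PP of experiment 1, only Rrm2 still passed and the median was -0.17. The count was 4 without ZsGreen+ Tfh from spleen of experiment 1 and 2 without that of experiment 2. The sort comparisons share these ZsGreen+ libraries.

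In ZsGreen− Tfh, 1 of the 45 genes passed between the tissues. Pcna alone was lower in PP (-0.54 ± 0.13, adjusted p 0.0297), with 77.9 and 73.8 CPM in PP and 105 and 117 CPM in spleen, where 3.68% of all genes were called lower. This call was lost without any 1 of the 4 ZsGreen− libraries (adjusted p up to 0.204), with library totals (adjusted p 0.395) and without the experiment term. None was higher by edgeR, where 1.82% of all genes were. At an unadjusted p under 0.05, 2 (Rpa1 and Lig1) were higher and 7 lower, where 1047 and 1508 of 14418 genes were. By limma none was called higher, and DESeq2 called Rpa1 higher (0.41, adjusted p 0.0108). The median was -0.12, against 0.00 over all genes, and 21 of the 45 were lower in both experiments, against 31.0% of all genes. That median turned to 0.07 without ZsGreen− Tfh from spleen of experiment 1. With library totals in place of TMM factors it was 0.03, when the median of all genes was 0.16.

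**Figure D4:**
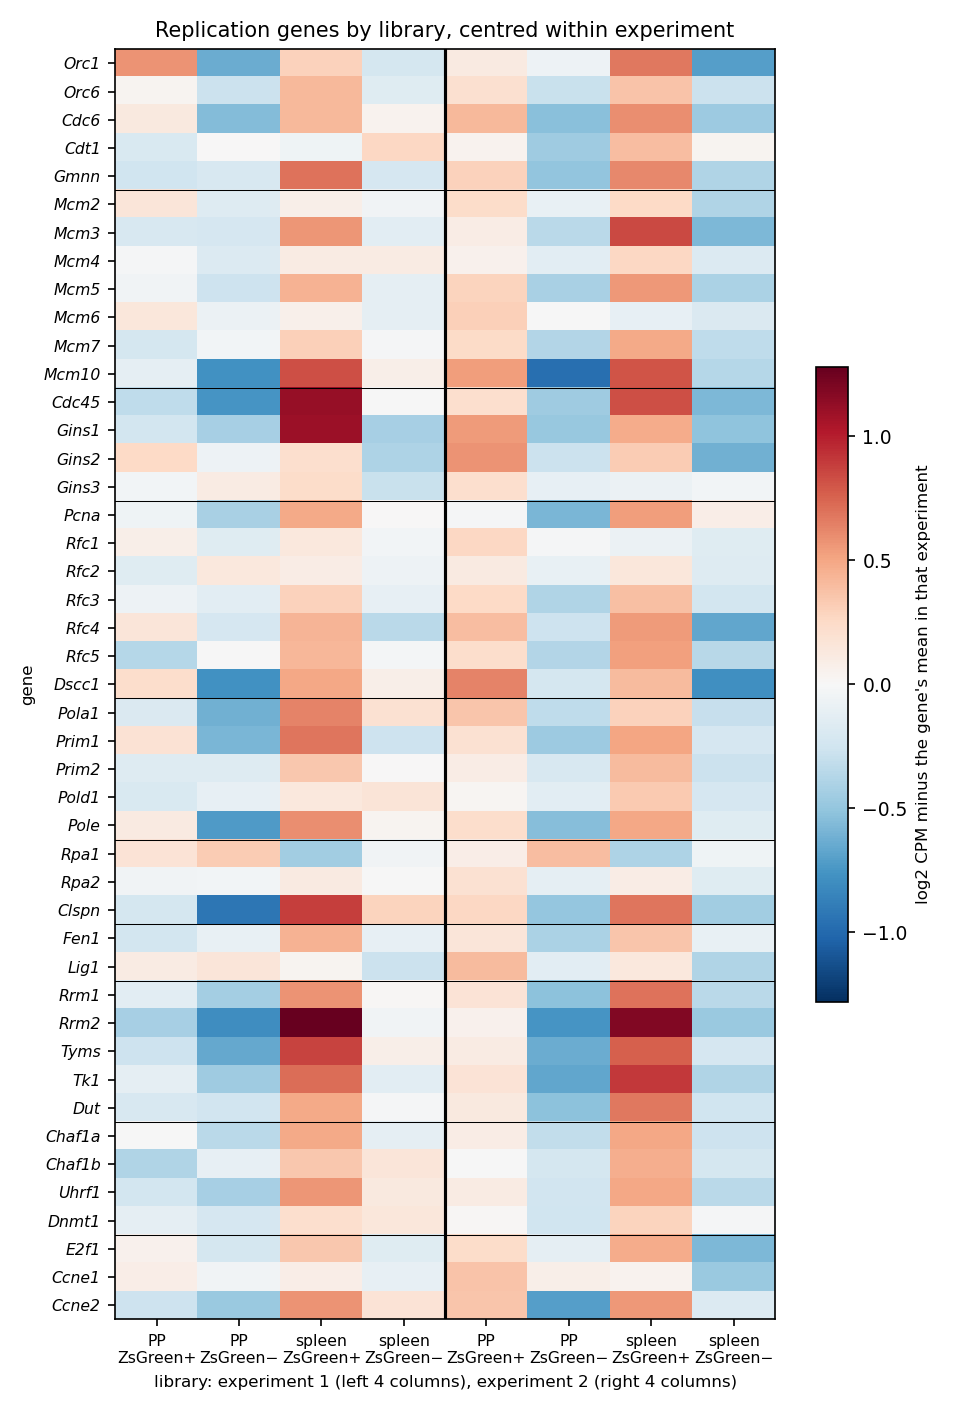
Log2 CPM of each of the 45 genes minus its mean over the 4 libraries of the same experiment, with experiment 1 in the left 4 columns and experiment 2 in the right 4 (rows by role, red high, blue low). The ZsGreen+ spleen column is the reddest of each experiment, and the Rpa1 row runs the other way, with r of -0.82 to the mean of the other genes.

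Most members moved together over the 8 libraries. After centring within experiments, the Pearson r of a gene with the mean of the other 44 was 0.99 for Mcm5, 0.98 for Orc6, Rrm1 and Chaf1a, and 0.97 for Tk1. It was lowest for Rpa1 (-0.82), Gins3 (0.36), Mcm6 (0.37), Cdt1 (0.49) and Lig1 (0.49). Outside the members, genes whose centred level followed the member mean most closely included Nkapd1 (r = 0.998), Paics (0.991), Mms22l (0.984), Ptrhd1 (0.984) and Nsl1 (0.983), among genes with a mean of at least 5 CPM. These values describe 8 libraries of 4 groups that share depth and sort, and 14418 genes were ranked.

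Of 48 further replication genes, 7 (14.6%) rose in ZsGreen+ Tfh of spleen, against 4.53% of all genes, and none fell, against 4.09%. The median was 0.33, against -0.03 over all genes. The 4 with the smallest p were Asf1b, a histone chaperone (1.18, adjusted p 0.00145), Tipin, of the fork protection complex (0.84, adjusted p 0.00906), Ticrr, which helps CDC45 load (1.09, adjusted p 0.0151), and Dbf4, the activator of the kinase CDC7 (0.67, adjusted p 0.0167). None passed in PP, where 0.284% of all genes were called higher and 0.153% lower. At an unadjusted p under 0.05, 11 of the 48 were higher there, against 621 of 14418 genes, and the median was 0.21.

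The fold changes of mitosis genes were larger in most comparisons, a difference that was not tested. Of 30 mitosis genes, 26 (86.7%) rose in ZsGreen+ Tfh of spleen, against 4.53% of all genes. Their median was 1.34, against 0.61 for the 45. Kif23, a cytokinesis motor, had the smallest p (1.41, adjusted p 0.000467). In PP none of the 30 passed edgeR's test, where 0.284% of all genes were called higher and 0.153% lower. At an unadjusted p under 0.05, 12 were higher there, against 621 of 14418 genes. The median in PP was 0.50, against 0.37 for the 45. Between tissues, 29 of 30 (96.7%) were called lower in PP than in spleen in ZsGreen+ Tfh, against 7.17% of all genes (median -1.72). In ZsGreen− Tfh 12 (40.0%) were called lower, against 3.68% of all genes (median -0.87). The summed CPM of the replication genes was 2.64 and 1.96 times that of the mitosis genes in ZsGreen+ and 3.06 and 2.37 times in ZsGreen− Tfh of PP. In spleen it was 0.908 and 0.895 times in ZsGreen+ and 1.44 and 1.55 times in ZsGreen− Tfh. The 4 PP libraries all lay above the 4 spleen libraries, and the ZsGreen+ library below its ZsGreen− partner in all 4 pairs; this ratio was not tested.

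**Figure D5:**
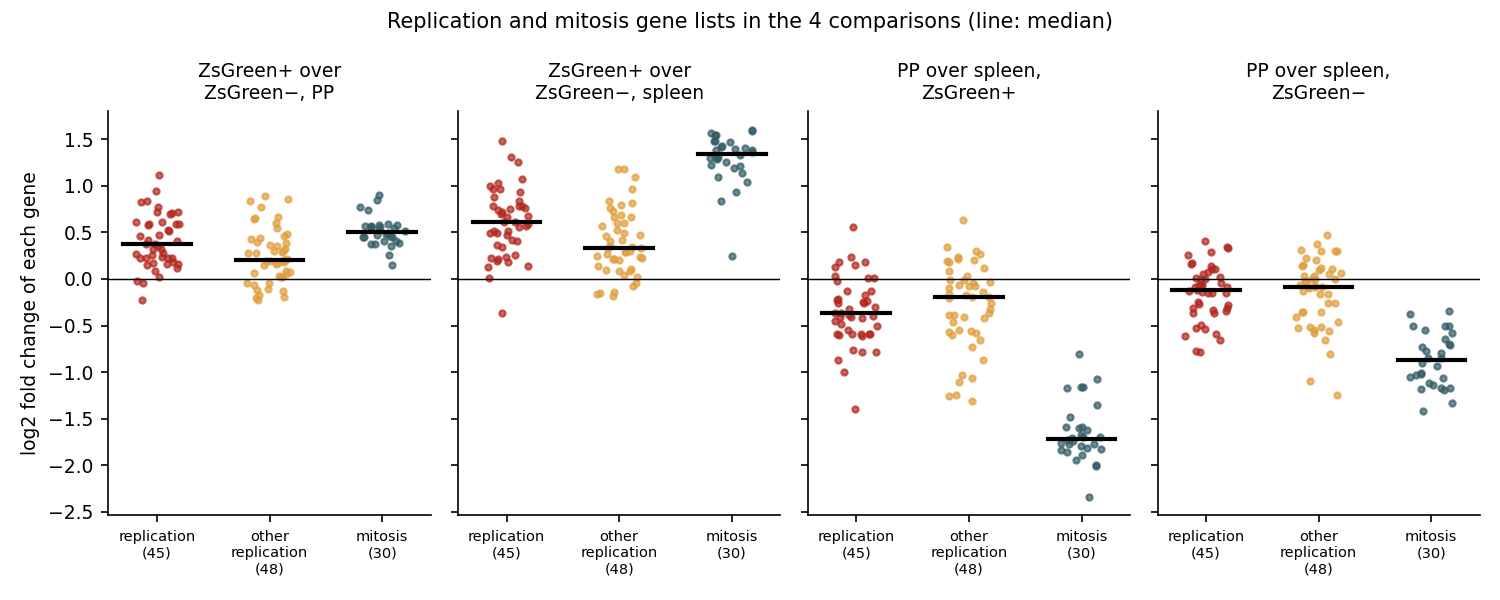
Log2 fold changes of the 45 replication genes, 48 further replication genes and 30 mitosis genes in the 4 comparisons; each point is a gene and the line is the median. The mitosis genes lie above the replication genes for ZsGreen+ over ZsGreen− in spleen (medians 1.34 and 0.61) and below them for PP over spleen in ZsGreen+ Tfh (medians -1.72 and -0.37).

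A list of genes of G1 entry and cell cycle brakes, which act in opposite ways, showed no common direction between ZsGreen+ and ZsGreen− Tfh of spleen. Of 21 tested genes of G1 entry and cell cycle brakes, 1 (4.76%) rose in ZsGreen+ Tfh of spleen, near the 4.53% of all genes, and 2 (9.52%) fell, against 4.09% of all genes, with a median of 0.02. The pocket protein gene Rbl2 rose by 0.64 (adjusted p 0.0131). Klf2, a quiescence factor, fell by 1.09 on the log2 scale (adjusted p 0.00381) and Ccnd2, a D-type cyclin, by 1.13 (adjusted p 0.0137). Cdkn1a, the CDK inhibitor p21, had 1.56 ± 0.39 and did not pass (adjusted p 0.0772). Between the tissues, more of this list was lower in PP. In ZsGreen+ Tfh 6 of the 21 (28.6%) were called lower, against 7.17% of all genes, and 1 (4.76%) higher, against 5.51%. The median was -0.51. In ZsGreen− Tfh 4 (19.0%) were called lower, against 3.68% of all genes, and 0 higher, against 1.82%, with a median of -0.31.

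The 8 B cell markers summed to 330 and 542 CPM in ZsGreen+ and 393 and 685 CPM in ZsGreen− Tfh of PP, and to 130 and 174 CPM in ZsGreen+ and 239 and 732 CPM in ZsGreen− Tfh of spleen, most of it Ighm. The sum was lower in the ZsGreen+ library of every pair. Of 6 markers of germinal-centre B cells, 4 were in both tables, of which Bcl6 is also a Tfh marker. Mef2b had 9.05 and 18.5 CPM in ZsGreen+ and 8.11 and 15.3 CPM in ZsGreen− Tfh of PP, and 0.586 and 2.14 CPM in ZsGreen+ and 2.35 and 12.6 CPM in ZsGreen− Tfh of spleen, higher in ZsGreen+ in PP and lower in spleen. Mybl1 was at 3.35 CPM or less and Gcsam at 1.69 CPM or less in every library. The part of these transcripts in the results was not tested.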

How the data were processed

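Per the submitters' processing notes, reads were handled in Partek with STAR and DESeq2 on mm39; the sources used here give no version or setting. The authors deposited, for each experiment, a table of gene-level estimated counts (20.8% to 31.2% of values not within 0.01 of a whole number) and a table of normalized signal, those counts divided by 1 factor per library. The mapping of libraries to groups and experiments came from the labels, and 0 per-sample columns were left unused. The estimated counts of the 16735 genes in both tables were rounded and genes with low counts removed by group (minimum count 10, total 15), leaving 14418. edgeR 4.0.16 (R 4.3.3) fitted group means plus an experiment term on all 8 libraries with TMM factors and robust quasi-likelihood, with 3 residual degrees of freedom; p-values were adjusted by Benjamini-Hochberg over all 14418 genes. Replicate numbers name the experiment in the labels, and same-numbered libraries deviated together (r 0.825 to 0.867 over 6 pairs of groups). The experiment term therefore takes up what the libraries of an experiment share. A pair in the results means the ZsGreen+ and ZsGreen− libraries of one tissue and experiment, and not cells shown to come from the same animals. In experiment 1 such libraries differed in Y-linked counts (1010 and 179 in PP, 1094 and 0 in spleen). CPM were TMM-scaled; log2 CPM used a prior count of 2. Alternatives used RLE factors, library totals, DESeq2 1.42.0, limma 3.58.1 on log2 of the authors' signal plus 1, other filters, and each library left out. The test was also run on data simulated from the means, library sizes and dispersions of the fitted counts. Exon lengths came from GENCODE M21 and promoters from RefSeq, both GRCm38, so no coordinate of the mm39 tables is given. Each library had 10009823 or more counts, but members of low level were still estimated less precisely. The SE in spleen was 0.42 for Orc1 (mean 4.06 CPM) and 0.38 for Dscc1 (mean 6.28 CPM), against 0.14 for Mcm6 (mean 251 CPM). The members, lists and rules were chosen with earlier results of these data known. All 45 genes are accounted for by role; values in every library are given for the most abundant member and the member with the smallest spleen p of each role and for those that go against their role. Names from the further lists are at most the 4 smallest spleen p and calls in the opposite direction, and Gins4 as the GINS subunit outside the members. Some genes that these rules would name are not reported here.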

Additional observations from a re-analysis of the deposited data

How the results depend on the processing

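Without the replicate block (the experiment term), 0 members passed in any of the 5 comparisons, against 16 in spleen, 10 between tissues in ZsGreen+ and 1 in ZsGreen− Tfh with it. In spleen the count was 16 to 22 under the other tools, scalings and filters, and 3 to 22 with 1 library left out, the median running from 0.41 to 0.81. In PP it was 2 with library totals (Mcm10, Rrm2), 1 with DESeq2 and 0 with any library left out, and for the difference between tissues it was 0 to 1. For PP over spleen in ZsGreen+ Tfh the count was 5 with library totals and 1 to 12 with 1 library left out (median -0.50 to -0.17). In ZsGreen− Tfh it was 2 with DESeq2 and 2 without a filter, and 0 to 3 with 1 library left out (median -0.25 to 0.07); that median was 0.03 with library totals. The summed level of PP over spleen, -0.30 on the log2 scale in ZsGreen+ and -0.04 in ZsGreen− Tfh, was -0.35 and -0.13 as a mean of log2 CPM and -0.37 and -0.13 without the 3 most abundant genes. Fitted estimates that changed sign in spleen were those of Cdt1 (0.01; -0.01 without the block, -0.0021 with a stricter filter, -0.28 to 0.31 with 1 library left out), Rfc1 (-0.03 to 0.26) and Pold1 (-0.0046 to 0.52). Within single experiments Mcm4 (-0.0031 in experiment 1), Gins3 (-0.03 in experiment 2), Pold1 (-0.02 in experiment 1) and Cdt1 (-0.33 in experiment 1) also turned. The causes were not tested. Refits per gene were counted for 56 results, those of the 45 genes in spleen and the calls between tissues. Of these refits, 694 kept direction and side of the threshold, 108 lost the call, 30 gained one and 8 changed sign. Calls gained in PP, between tissues or for the difference between sort effects are not in these counts. With 2 libraries a group, outliers could not be tested.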
